A study of Mus musculus with 6 samples.

Results

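The genes described here are 9 genes of insulin signalling, *Insr*, *Irs1*, *Irs2*, *Pik3r1*, *Akt1*, *Akt2*, *Foxo1*, *Foxo3* and *Foxo4*, chosen by symbol from the 54525 gene rows of each count table. All 9 had a row and passed the filter on low counts, which 16290 genes passed. RNA-seq was performed on 3 libraries of C2C12 myoblasts (day 0, D0) and 3 libraries of C2C12 myotubes taken on day 5 of differentiation (D5). C2C12 is one established mouse myoblast line whose cells stop dividing and fuse into multinucleated myotubes, and all samples are given as WT with no treatment. Myoblasts were grown in DMEM with fetal bovine serum, and differentiation was carried out in DMEM with horse serum at a lower concentration. The change of serum, which itself supplies growth factors, and the differentiation cannot be told apart in this design, and whether the 3 libraries of a group came from separate passages is not given, so the p-values measure the spread between these libraries, which may be technical.

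Insulin binds the insulin receptor, a tyrosine kinase encoded by *Insr*, which phosphorylates the adaptor proteins encoded by *Irs1* and *Irs2*. These adaptors recruit phosphatidylinositol 3-kinase (PI3K) through its regulatory subunit, encoded by *Pik3r1*, and the lipid that PI3K makes brings the Akt kinases to the membrane, where they are activated. Akt phosphorylates the FoxO transcription factors, which then bind Ywha proteins and stay out of the nucleus. In skeletal muscle the pathway is known for driving glucose uptake, glycogen and protein synthesis, and FoxO proteins for switching on genes of protein breakdown and autophagy. Much of this control acts on phosphorylation and location of the proteins, which transcript counts do not measure.

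The libraries held 36555048 to 40895840 counts on genes at D0 and 25449759 to 25811300 at D5, and each of the 9 genes had between 684 and 13749 counts in every library. The labelled cell states were checked with marker lists. The summed level of 7 myotube markers was 35.9 to 44.2 counts per 1000000 counts (CPM, scaled with TMM factors) at D0 and 11523 to 12250 at D5, and all 7 were higher at D5. The 4 proliferation markers, with *Mki67* among them, summed to 1548 to 1565 CPM at D0 and 47.4 to 55.8 at D5, and all 4 were lower. The 3 myoblast markers *Myod1*, *Myf5* and *Pax7* were lower at D5 and summed to 339 to 356 CPM at D0 and 154 to 160 at D5. Of 4 fibroblast markers, *Pdgfra*, *Col1a1* and *Dcn* were higher at D5, the list summed to 18.6 to 19.0 CPM at D0 and 452 to 477 at D5, and *Thy1* was at 0 or 1 counts throughout. The part that these cells and states had in the results below was not tested. The adipocyte list summed to at most 0.285 CPM, with *Adipoq*, *Plin1*, *Cidec* and *Lep* at or under 3 counts in every library, and the endothelial list to at most 1.04. The leukocyte list summed to at most 3.31 CPM. Of the osteoblast list only *Runx2* passed the filter, and it was lower at D5. In bulk libraries, fewer cells of a type and less RNA per cell cannot be told apart.

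All 9 genes differed between D0 and D5 by edgeR's quasi-likelihood test with Benjamini-Hochberg adjustment over the 16290 genes tested. *Irs1*, *Pik3r1*, *Akt2*, *Foxo1*, *Foxo3* and *Foxo4* were higher at D5 and *Insr*, *Irs2* and *Akt1* were lower, with TMM scaling. This has to be read against the whole transcriptome, in which 82.9% of the genes tested passed the threshold, 42.2% as higher and 40.8% as lower. In each of the 9 genes the 3 D5 libraries did not overlap the 3 D0 libraries, as was so for 42.2% of all genes tested in the higher direction and 41.1% in the lower. A change of at least 1 on the log2 scale was found for 4 of the 9 genes, *Pik3r1*, *Akt2*, *Foxo3* and *Foxo4*, all higher, against 19.3% of all genes tested that rose by as much and 16.0% that fell by as much. The directions rest on the scaling: TMM placed the median log2 fold change of all genes tested at 0.0022, whereas scaling to the ERCC spike-ins, synthetic RNAs added to each sample, placed it at -0.58, and *Irs1* and *Foxo1* then became negative, at -0.28 and -0.07. The spike-ins took 1.20%, 0.720% and 2.09% of the counts in the D5 libraries and 0.726% to 0.859% at D0. With ERCC scaling 0 of the 9 genes passed edgeR's threshold, against 5560 of all 16290 genes tested. By the same test 2 of the 9 had an unadjusted p below 0.05 (DESeq2 was not run with this scaling). Relative to the median of all genes, the ERCC log2 fold changes of the 9 genes ran from -0.39 for *Akt1* to 1.82 for *Pik3r1*. Taking off the median undoes a shift shared by all genes, so these values return nearly to those with TMM scaling and are no separate support. ERCC scaling without D5 replicate 2 called *Pik3r1* higher and *Insr*, *Irs2* and *Akt1* lower, and without D5 replicate 3 it called *Pik3r1*, *Akt2* and *Foxo4* higher. Of all genes tested, 1883 were then higher and 9781 lower without D5 replicate 2, and 2988 were higher without D5 replicate 3.

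**Figure D1:**
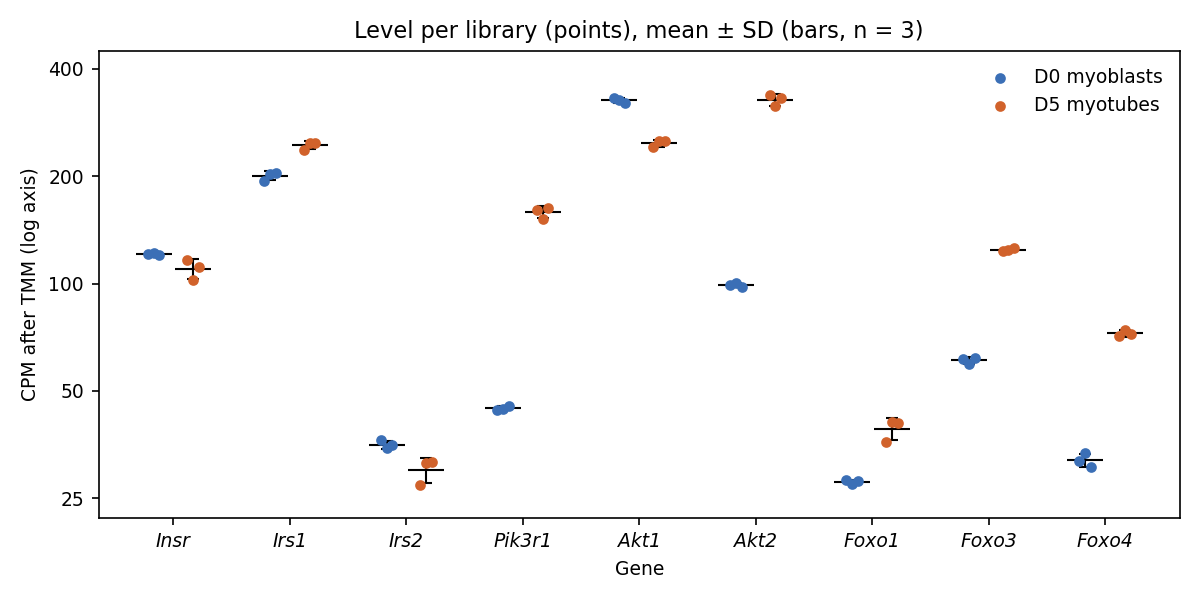
Level of the 9 genes in each library, in CPM after TMM scaling on a log axis. Points are libraries, black bars the mean ± SD of 3 libraries, blue D0 and orange D5. The D5 points of Pik3r1 and Akt2 lie more than 3-fold above their D0 points, and those of Insr and Irs2 lie close below theirs. With ERCC scaling Irs1 and Foxo1 turn negative.

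The insulin receptor was slightly lower in myotubes. *Insr* (chromosome 8, 3122061 to 3279617, minus strand, all coordinates on GRCm38) was at 121, 122 and 120.4 CPM in the D0 libraries and at 116, 102 and 111 in the D5 libraries (log2 fold change -0.14, SE 0.038, adjusted p = 0.00175). The D5 libraries were spread more widely than the D0 libraries, with D5 replicate 2 lowest, and without that library the log2 fold change was -0.084, with an adjusted p of 0.0446 by edgeR's test. The related receptor *Igf1r*, which binds insulin-like growth factors and uses the same adaptors, was at 100.6 ± 1.67 CPM at D0 and 116 ± 2.26 at D5 (SD, n = 3; log2 fold change 0.20, SE 0.034, adjusted p = 3.2e-06), and was negative with ERCC scaling, at -0.37. *Insrr*, the third receptor of the family, had 0 counts in all 6 libraries, where 3 counts is taken as the detection floor. Per length, *Insr* made up 59.5% ± 0.370 of the summed transcripts per 1000000 (TPM) of *Insr* and *Igf1r* at D0 and 53.6% ± 1.54 at D5.

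The adaptors moved apart, *Irs1* up and *Irs2* down with TMM scaling, and with ERCC scaling *Irs1* was also negative. *Irs1* (chromosome 1, 82233101 to 82291416, minus strand), the more abundant of them, was at 194, 204 and 205 CPM at D0 and 237, 248 and 248 at D5, so that all D5 libraries were above all D0 libraries (log2 fold change 0.28, SE 0.034, adjusted p = 6.4e-09). *Irs2* (chromosome 8, 10984681 to 11008458, minus strand) was at 36.3, 34.5 and 35.2 CPM at D0 and 27.2, 31.4 and 31.5 at D5, lower in every D5 library (log2 fold change -0.23, SE 0.052, adjusted p = 0.000165). *Irs1* supplied 79.7% ± 0.906 of the summed Irs TPM at D0 and 84.7% ± 0.636 at D5, while that sum was 100.3 ± 3.49 TPM and 103 ± 1.65 TPM. Here and below, TPM carries no TMM factor, so levels and sums in TPM are not on the scale of the fold changes. *Irs4* had 0 counts in all libraries and *Irs3* at most 7, too few to be tested. *Irs1* shares 30.9% of its exonic bases with *Gm9747* on the opposite strand, which had 3 to 27 counts, and the strand setting of the counting is not stated.

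Irs1 and Irs2 promoter windows are shown because both adaptors carry the same 6-base E-box, in genes that moved in opposite directions with TMM scaling. Each window runs from 250 bases before to 50 bases after the RefSeq start site on GRCm38.p6, written 5′ to 3′ along the gene. They lie at chr1:82291390-82291689 and chr8:11008880-11009179, both on the minus strand and the RefSeq start site of Irs2 lies 471 bases upstream of the gene start in GENCODE, so that its whole window lies upstream of that gene start. Capitals mark the match to the E-box CANNTG, the general motif of basic helix-loop-helix factors, and which of these factors could bind the matches was not tested.
Irs1: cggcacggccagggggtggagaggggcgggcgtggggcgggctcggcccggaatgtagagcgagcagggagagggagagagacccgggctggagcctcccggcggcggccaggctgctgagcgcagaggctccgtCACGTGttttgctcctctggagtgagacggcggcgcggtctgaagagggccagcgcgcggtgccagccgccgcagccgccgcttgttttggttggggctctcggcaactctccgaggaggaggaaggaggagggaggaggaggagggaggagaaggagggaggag
Irs2: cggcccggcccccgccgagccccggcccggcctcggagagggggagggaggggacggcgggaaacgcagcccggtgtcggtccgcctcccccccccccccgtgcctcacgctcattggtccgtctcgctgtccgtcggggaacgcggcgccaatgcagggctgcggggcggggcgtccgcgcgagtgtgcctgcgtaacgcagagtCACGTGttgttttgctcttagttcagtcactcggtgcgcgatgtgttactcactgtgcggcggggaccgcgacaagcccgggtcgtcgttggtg

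The match begins 115 bases before the start site in *Irs1* and 44 bases before it in *Irs2*, and reads CACGTG in both. CACGTG was looked for only after these matches were seen, and it stands in 7.15% of the 32851 promoter windows of the table.

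*Pik3r1* rose most among the 9 genes. It encodes the regulatory subunit that stabilises the catalytic subunit of PI3K and docks it on phosphorylated adaptors. *Pik3r1* (chromosome 13, 101680563 to 101768217, minus strand) was at 44.1, 44.6 and 45.3 CPM at D0 and 161, 152 and 163 at D5, 3.55-fold higher by the group means (log2 fold change 1.83, SE 0.038, adjusted p = 9.9e-28). The other regulatory subunit genes showed no called change with TMM scaling: *Pik3r2* was at 79.6 ± 1.27 CPM at D0 and 79.9 ± 1.73 at D5 (SD, n = 3; log2 fold change 0.0057, SE 0.037, adjusted p = 0.890), and *Pik3r3* at 51.1 ± 1.91 and 53.4 ± 1.38 (log2 fold change 0.06, SE 0.042, adjusted p = 0.162). *Pik3r2* was called lower with total counts alone, at -0.079 (adjusted p = 0.048), and with ERCC scaling without D5 replicate 2, at -1.04 (adjusted p = 0.015). In that last fit *Pik3r3* was also called lower, at -0.94 (adjusted p = 0.027 by edgeR's test). *Pik3r3* shares 24.3% of its exonic bases with *Gm49337* on the same strand, so its count is uncertain. *Pik3r1* held 13.4% ± 0.420 of the summed TPM of these subunits at D0 and 35.0% ± 1.03 at D5, and the sum went from 121 ± 1.70 to 147 ± 4.03 TPM. *Pik3r2* remained the most abundant of them per length, at 42.6% ± 1.28 at D5.

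*Akt1* and *Akt2* changed in opposite directions. *Akt1*, the kinase most linked to growth and survival, and *Akt2*, the kinase most linked to insulin-driven glucose uptake, lie on chromosomes 12 (112653821 to 112674884, minus strand) and 7 (27591552 to 27640826, plus strand). *Akt1* was at 332, 327 and 321 CPM at D0 and fell to 241, 250.4 and 251 at D5 (log2 fold change -0.40, SE 0.032, adjusted p = 1.2e-12). *Akt2* was at 98.8, 100.3 and 97.9 CPM at D0 and rose to 339, 314 and 331 at D5, 3.32-fold by the group means (log2 fold change 1.73, SE 0.035, adjusted p = 5.1e-28). In counts every D5 library held more *Akt2* than *Akt1*, and every D0 library held less.

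Per length, *Akt1* stayed above *Akt2* in both states. It held 85.2% ± 0.205 of the summed TPM of *Akt1* and *Akt2* at D0 and 56.8% ± 1.39 at D5, against 14.8% ± 0.205 and 43.2% ± 1.39 for *Akt2*. Their summed level was 341 ± 1.62 TPM at D0 and 349 ± 9.32 TPM at D5, with D5 libraries on both sides of the D0 libraries. TPM carries no TMM factor and lies lower at D5 than the scale of the fold changes. *Pik3r2*, nearly level in CPM with TMM scaling, was at 69.4 ± 0.878 TPM at D0 and 62.7 ± 0.619 at D5. Whether the sum of *Akt1* and *Akt2* changed therefore depends on the scaling. With the longest transcript as length the sum was 412 ± 1.46 and 431 ± 10.6 TPM, and every D5 library was above every D0 library. No stretch of 50 bases was shared between transcripts of *Akt1* and *Akt2*, nor within the FoxO, Irs, receptor or Pik3r families (0% of stretches).

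Promoter windows of *Akt1* and *Akt2* are shown because their ratio changed most among the pairs compared. They lie at chr12:112674835-112675134 on the minus strand and chr7:27591302-27591601 on the plus strand of GRCm38.p6, with the same limits as above. Capitals mark the FoxO binding motif GTAAACA, read on either strand, and the E-box CANNTG.
Akt1: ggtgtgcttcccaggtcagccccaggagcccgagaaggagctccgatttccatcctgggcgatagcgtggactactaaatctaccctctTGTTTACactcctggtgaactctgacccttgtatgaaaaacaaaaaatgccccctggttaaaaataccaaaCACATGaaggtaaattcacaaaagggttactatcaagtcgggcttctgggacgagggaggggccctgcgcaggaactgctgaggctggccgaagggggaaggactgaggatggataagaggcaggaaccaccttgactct
Akt2: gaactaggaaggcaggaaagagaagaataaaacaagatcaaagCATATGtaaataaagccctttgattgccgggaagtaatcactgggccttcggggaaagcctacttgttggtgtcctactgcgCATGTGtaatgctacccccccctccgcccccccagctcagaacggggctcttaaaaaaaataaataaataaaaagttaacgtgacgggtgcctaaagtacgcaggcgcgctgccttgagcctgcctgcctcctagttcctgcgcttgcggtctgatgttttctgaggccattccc

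The *Akt1* window shown held TGTTTAC, the FoxO motif on the reverse strand, 161 bases before the start site, and an E-box 90 bases before it. *Akt1* has another RefSeq window, chr12:112674227-112674526, whose start site lies 608 bases from the gene start in GENCODE. That window held 0 FoxO motifs and 0 E-boxes, with 79.7% GC and 42 CG pairs, so the matches belong to only one of its start sites. The *Akt2* window shown held no FoxO motif and carried E-boxes 207 and 125 bases before the start site. *Akt2* has further RefSeq windows, with start sites 5278, 14245 and 15784 bases from the gene start in GENCODE. These held 0, 2 and 2 E-boxes in that order and no FoxO motif. RefSeq windows were found for 7 of the 9 genes, 12 windows in all, and in the first window of each gene the FoxO motif was present in 1 of 7, the E-box in 5 of 7 and the core of the MEF2 site (CTA and TAG 4 bases apart) in 0 of 7, searched on both strands. Of all 32851 windows, 3.65% held the FoxO motif, 72.3% the E-box and 3.69% the MEF2 core. The GC content of the first windows ran from 50% for *Akt2* to 75.7% for *Pik3r1*, against a median of 52.7% and quartiles of 45.7% and 61.7% over all windows, and they held 8 to 41 CG pairs against a median of 7. These are matches of letters and no binding was measured.

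**Figure D2:**
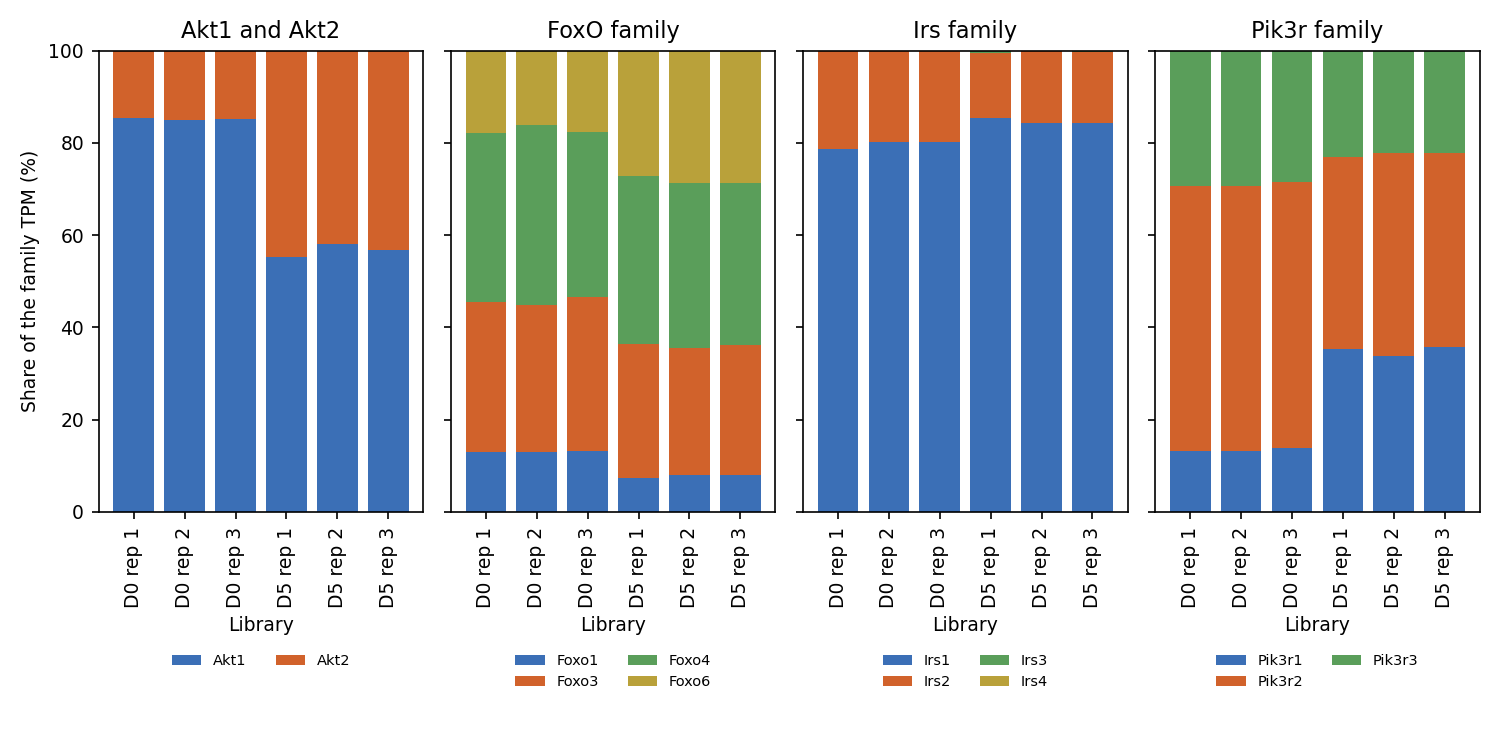
Share of the summed TPM held by each gene, in percent, one stacked bar per library for Akt1 with Akt2 and for the FoxO, Irs and Pik3r families. The orange Akt2 segment is near 15% in the D0 libraries and near 43% in the D5 libraries, and the blue Pik3r1 segment goes from near 13% to near 35%.

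The FoxO genes were higher in myotubes with TMM scaling, whereas *Foxo1* was slightly negative with ERCC scaling. With ERCC scaling *Foxo3* was at 0.46 and *Foxo4* at 0.63, and neither was called (adjusted p = 0.51 and 0.36 by edgeR's test). Without D5 replicate 2 that scaling put them at 0.0011 and 0.14, and without D5 replicate 3 it called *Foxo4* higher. The FoxO genes encode transcription factors that Akt holds inactive. *Foxo1* (chromosome 3, 52268336 to 52353221, plus strand) was at 28.1, 27.4 and 27.9 CPM at D0 and 35.8, 40.9 and 40.5 at D5 (log2 fold change 0.49, SE 0.051, adjusted p = 3.6e-10). *Foxo3* (chromosome 10, 42181841 to 42276755, minus strand) was at 61.5, 59.3 and 61.9 CPM at D0 and 123, 124 and 126 at D5, about double (log2 fold change 1.03, SE 0.036, adjusted p = 7.7e-22). *Foxo4* (chromosome X, 101254528 to 101260873, plus strand) was at 31.8, 33.4 and 30.6 CPM at D0 and 71.0, 74.1 and 72.2 at D5 (log2 fold change 1.18, SE 0.043, adjusted p = 3.5e-21). *Foxo6*, the remaining member of the family, rose most, from 11.02 ± 0.698 to 42.8 ± 2.67 CPM (SD, n = 3; log2 fold change 1.96, SE 0.059, adjusted p = 2.2e-23). The summed FoxO level went from 89.7 ± 0.546 to 191 ± 2.24 TPM. Within it the share of *Foxo1* went from 13.03% ± 0.124 to 7.76% ± 0.321 and that of *Foxo6* from 17.1% ± 0.971 to 28.1% ± 0.875, while *Foxo4* was at 37.2% ± 1.70 and 35.8% ± 0.617. *Foxo1* shares 7.78% of its exonic bases with *Gm20402* on the opposite strand, which had 1 to 3 counts.

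**Figure D3:**
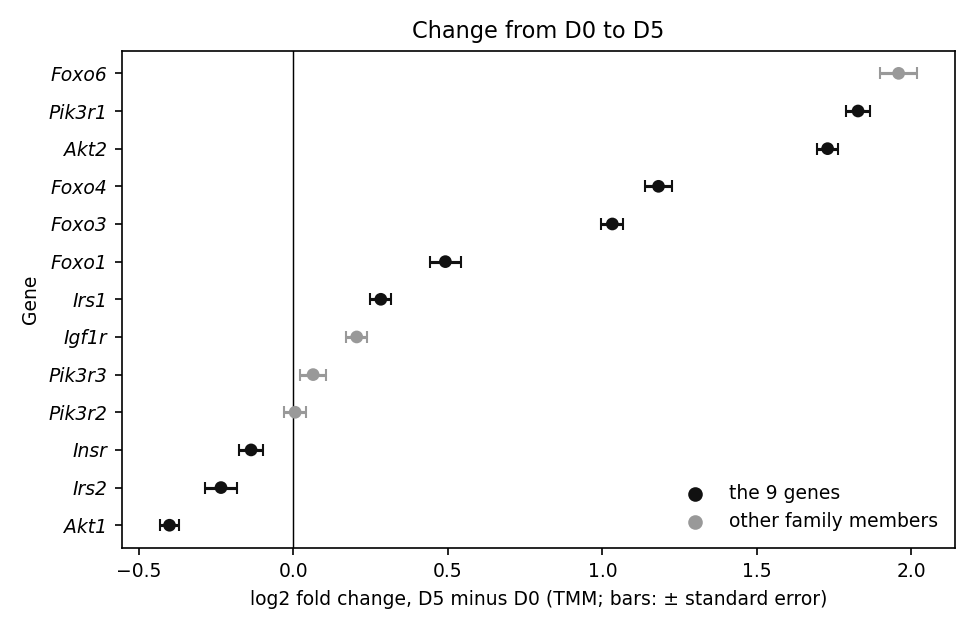
Log2 fold change from D0 to D5 of the 9 genes (black) and of other family members (grey), with TMM scaling, bars showing ± standard error. Foxo6, Pik3r1 and Akt2 lie above 1.5 and Akt1, Irs2 and Insr below 0. With ERCC scaling Irs1, Foxo1, Igf1r, Pik3r2 and Pik3r3 turn negative.

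A ratio of 2 genes within a library does not depend on how libraries are scaled, and 7 such ratios were compared with an exact two-sided permutation test, for which 0.1 is the smallest p that 3 libraries against 3 allow. All 7 gave an exact p of 0.1, also after adjustment over the 7, so that none could reach 0.05, and in none did the groups overlap. How often other gene pairs separate in this way was not computed. Among single genes tested, the groups did not overlap for 42.2% in the higher direction and 41.1% in the lower, so separation is no particular trait of these pairs. The log2 ratio of *Akt2* to *Akt1* counts was -1.75, -1.71 and -1.71 in the D0 libraries and 0.49, 0.33 and 0.40 in the D5 libraries, a difference of 2.13. That of *Pik3r1* to *Pik3r2* was -0.86, -0.85 and -0.79 at D0 and 1.04, 0.89 and 1.04 at D5, a difference of 1.82. In both pairs the sign of the ratio of counts turned, but that sign depends on the lengths of the genes. Per length *Akt1* stayed above *Akt2* and *Pik3r2* above *Pik3r1* at D5. *Insr* to *Igf1r* went from 0.29, 0.25 and 0.25 to 0.02, -0.16 and -0.09, a difference of -0.34, and *Irs2* to *Irs1* differed by -0.52. Among the FoxO genes, *Foxo3* and *Foxo4* gained on *Foxo1* by 0.54 and 0.69, and *Foxo4* on *Foxo3* by 0.15, the smallest of the differences.

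**Figure D4:**
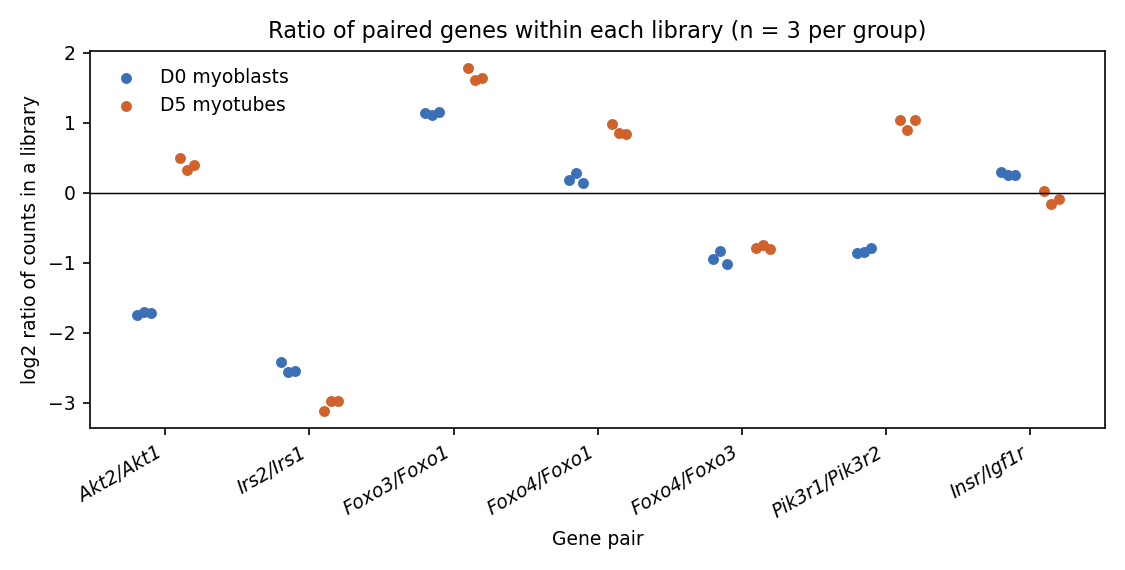
Log2 ratio of the counts of paired genes within each library, 3 D0 libraries in blue and 3 D5 libraries in orange. Akt2 to Akt1 goes from a mean of -1.72 to 0.41 and Pik3r1 to Pik3r2 from -0.83 to 0.99, and the line marks equal counts.

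For the order of their levels the 9 genes were compared per length, in TPM from the union of exons. At D0 *Akt1* was far above the rest at 290.5 ± 0.992 TPM (SD, n = 3), followed by *Irs1* at 79.98 ± 3.62, *Akt2* at 50.6 ± 0.890, *Foxo4* at 33.4 ± 1.44, *Insr* at 32.1 ± 0.493, *Foxo3* at 29.3 ± 0.818, *Irs2* at 20.3 ± 0.362, *Pik3r1* at 16.1 ± 0.471 and *Foxo1* at 11.7 ± 0.176. All neighbours in that order were apart over the 3 libraries, but only 5 of the 9 genes kept their place when the length of the longest transcript was used. At D5 the order was *Akt1* at 198 ± 1.44 TPM, *Akt2* at 151 ± 8.81, *Irs1* at 87.6 ± 0.848, *Foxo4* at 68.2 ± 0.566, *Foxo3* at 53.9 ± 0.852, *Pik3r1* at 51.6 ± 2.74, *Insr* at 26.3 ± 2.18, *Irs2* at 15.6 ± 0.959 and *Foxo1* at 14.8 ± 0.781. With the longest transcript 7 kept their place, and with the union of exons the libraries of *Foxo3* and *Pik3r1* overlapped, as did those of *Irs2* and *Foxo1*. *Pik3r1*, *Akt2* and *Foxo3* had moved up the order, and *Insr*, *Irs1* and *Irs2* had moved down.

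Upstream of Akt, the list of PI3K subunits and receptor partners was divided. Of 22 genes listed 18 were tested, 8 were higher, 5 lower and 5 not called, with a median log2 fold change of 0.06, where 42.2% of all genes tested were higher and 40.8% lower. With ERCC scaling 3 were called higher and 2 lower, where 1813 of all 16290 genes tested were higher and 3747 lower. Without D5 replicate 2 that scaling called 10 of the list lower, and 9781 of all genes tested. *Cav3*, which encodes the muscle caveolin, was counted 0, 1 and 0 times at D0 and 615, 668 and 633 times at D5, at least 341-fold higher against a floor of 3 counts per library. *Pik3c2b*, a class II PI3K, rose from 2.09 ± 0.0956 to 22.7 ± 0.924 CPM (SD, n = 3; log2 fold change 3.44, SE 0.086, adjusted p = 1.7e-25). Its relative *Pik3c2a* fell from 255 ± 3.72 to 70.4 ± 2.73 CPM (log2 fold change -1.86, SE 0.036, adjusted p = 2.0e-28), and *Pik3cd*, a catalytic subunit best known from leukocytes, fell from 19.4 ± 0.566 to 4.22 ± 0.246 (log2 fold change -2.20, SE 0.08, adjusted p = 2.8e-21). Of 3 leukocyte markers, *Ptprc* was at or under 3 counts in every library, *Cd68* went from 3.15 ± 0.138 to 2.22 ± 0.356 CPM (log2 fold change -0.50, SE 0.15, adjusted p = 0.0030), and *Itgam* had 0 counts at D0 and 5 to 13 at D5. Their summed level was 3.05 to 3.31 CPM at D0 and 2.05 to 3.12 CPM at D5, and its part in the fall of *Pik3cd* was not tested.

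The list of kinases and partners around Akt and mTOR had 19 genes tested, 9 higher, 9 lower and 1 not called, with a median of 0.05, against the same 42.2% and 40.8% of all genes tested. With ERCC scaling 1 was called higher and 5 lower, with 1 lower without D5 replicate 1 and 11 without D5 replicate 2. Of all 16290 genes tested, ERCC scaling called 1813 higher and 3747 lower. The all-gene count of lower genes was 1809 without D5 replicate 1 and 9781 without D5 replicate 2. *Deptor*, which binds and inhibits mTOR, rose from 36.7 ± 0.244 to 393 ± 3.45 CPM (log2 fold change 3.42, SE 0.036, adjusted p = 2.6e-35), and *Tsc2*, which switches off the mTOR activator Rheb, from 82.7 ± 3.84 to 152 ± 4.01 (log2 fold change 0.87, SE 0.037, adjusted p = 1.7e-19). With ERCC scaling *Tsc2* was not called, at 0.32 (adjusted p = 0.66), and it was negative without D5 replicate 2, at -0.17 (adjusted p = 0.69). *Prr5l*, an mTORC2 partner, fell from 11.3 ± 0.685 to 0.416 ± 0.0654 CPM (log2 fold change -4.76, SE 0.16, adjusted p = 2.4e-22), and *Sgk3*, a kinase related to Akt, from 10.1 ± 0.193 to 5.07 ± 0.298 (log2 fold change -0.99, SE 0.089, adjusted p = 1.7e-11).

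Among the inhibitors of insulin signalling, 21 were listed and 20 tested, 12 were higher, 6 lower and 2 not called, with a median of 0.51, where 42.2% of all genes tested were higher and 40.8% lower. With ERCC scaling 7 were called higher and 6 lower, where 1813 of all 16290 genes tested were higher and 3747 lower. *Inpp4b*, a phosphatase of PI3K lipids, rose from 0.703 ± 0.101 to 52.0 ± 1.77 CPM (log2 fold change 6.20, SE 0.087, adjusted p = 5.1e-32). *Ptprf*, a receptor tyrosine phosphatase that can act on the insulin receptor, rose from 1.29 ± 0.182 to 49.3 ± 2.64 CPM (log2 fold change 5.26, SE 0.083, adjusted p = 9.9e-31). Falling members were *Socs2*, a suppressor of cytokine and growth hormone signalling, from 338 ± 7.35 to 29.99 ± 2.06 CPM (log2 fold change -3.50, SE 0.043, adjusted p = 1.3e-33), and *Trib3*, a pseudokinase that binds Akt, from 28.7 ± 4.10 to 9.03 ± 0.650 (log2 fold change -1.66, SE 0.086, adjusted p = 2.6e-17). Of the list 7 genes rose and 5 fell by at least 1 on the log2 scale, against 19.3% and 16.0% of all genes tested.

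Downstream of Akt, the metabolic list had 15 genes tested, 7 higher, 7 lower and 1 not called, with a median of -0.0054, against 42.2% and 40.8% of all genes tested. With ERCC scaling 2 were called higher and 2 lower, with 1 in each direction without D5 replicate 1 and 8 lower without D5 replicate 2. Of all 16290 genes tested, ERCC scaling called 1813 higher and 3747 lower. The all-gene counts were 1578 higher and 1809 lower without D5 replicate 1, and 9781 lower without D5 replicate 2. The glucose transporters moved in opposite directions. *Slc2a4*, which encodes the insulin-responsive transporter, had 0, 4 and 3 counts at D0 and 193, 187 and 172 at D5 (adjusted p = 7.0e-21), while *Slc2a1*, which encodes the basal transporter, fell from 209 ± 4.56 to 66.4 ± 3.53 CPM (SD, n = 3; log2 fold change -1.65, SE 0.038, adjusted p = 1.9e-26). In CPM *Slc2a4* reached only 7.40 ± 0.420 at D5. *Gys1*, the muscle glycogen synthase, rose from 57.7 ± 1.23 to 225 ± 2.28 CPM (log2 fold change 1.96, SE 0.034, adjusted p = 1.4e-29), and *Tbc1d4*, an Akt substrate in glucose transporter traffic, fell from 8.27 ± 0.637 to 4.81 ± 0.297 (log2 fold change -0.78, SE 0.099, adjusted p = 2.3e-08).

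With TMM scaling the regulators of FoxO mostly fell while the listed FoxO targets mostly rose. Of 17 regulators and family members, 2 were higher, 13 lower and 2 not called, with a median of -0.42, where 40.8% of all genes tested were lower. The higher ones were *Foxo6* and the deacetylase *Sirt2*, which went from 46.6 ± 0.775 to 78.7 ± 1.65 CPM (log2 fold change 0.76, SE 0.039, adjusted p = 2.3e-17). *Ywhah* fell from 176 ± 1.54 to 42.9 ± 2.53 CPM (log2 fold change -2.04, SE 0.04, adjusted p = 2.4e-28), and *Skp2*, a ubiquitin ligase subunit also needed for cell division, from 45.5 ± 0.290 to 11.4 ± 0.853 (log2 fold change -2.00, SE 0.056, adjusted p = 3.6e-24). All 7 genes of the Ywha adaptor family on the list, *Sfn* included, were lower, at log2 fold changes from -2.04 to -0.32, a grouping made after the values were seen. With ERCC scaling 1 gene of the list was called higher and 5 lower, with 3 lower without D5 replicate 1 and 15 without D5 replicate 2. Of all 16290 genes tested, ERCC scaling called 1813 higher and 3747 lower. The all-gene count of lower genes was 1809 without D5 replicate 1 and 9781 without D5 replicate 2.

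Of 25 FoxO targets, 18 were higher, 4 lower and 3 not called, with a median of 0.90, against 42.2% of all genes tested that were higher and a median of all genes of 0.0022. A rise of at least 1 on the log2 scale was found for 12, against 19.3% of all genes tested. With ERCC scaling 6 were called higher and 0 lower by edgeR's test, with 9 lower without D5 replicate 2 and 11 higher without D5 replicate 3. Of all 16290 genes tested, ERCC scaling called 1813 higher and 3747 lower. The all-gene counts were 9781 lower without D5 replicate 2 and 2988 higher without D5 replicate 3. *Trim63*, a muscle ubiquitin ligase of protein breakdown, had 10, 9 and 16 counts at D0 and 2435, 2397 and 2486 at D5 (log2 fold change 8.37, SE 0.089, adjusted p = 4.5e-35). *Cdkn1a*, a cell cycle inhibitor that Myod1 also induces when myoblasts stop dividing, rose from 107 ± 3.29 to 2006 ± 54.3 CPM (log2 fold change 4.22, SE 0.038, adjusted p = 7.9e-37). *Cat*, which encodes catalase, fell from 70.5 ± 1.71 to 54.1 ± 1.99 CPM (log2 fold change -0.38, SE 0.04, adjusted p = 6.2e-10), and *Fbxo21*, a ubiquitin ligase subunit, from 32.8 ± 0.710 to 26.6 ± 0.763 (log2 fold change -0.30, SE 0.049, adjusted p = 1.6e-06). *Fbxo32*, the other well-known ubiquitin ligase of muscle wasting, was outside the naming rule and is given after its value was seen: it fell from 195 ± 4.92 to 173 ± 5.99 CPM (log2 fold change -0.17, SE 0.034, adjusted p = 4.6e-05), so that the best-known pair of FoxO targets in muscle moved in opposite directions. *Cav3* and *Klf15* were each at or under 3 counts in every D0 library. With both set to their lower bounds the medians of all 6 lists were the same. No median could move, because both bounds lie above the medians of their lists and the other lists held no such gene.

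**Figure D5:**
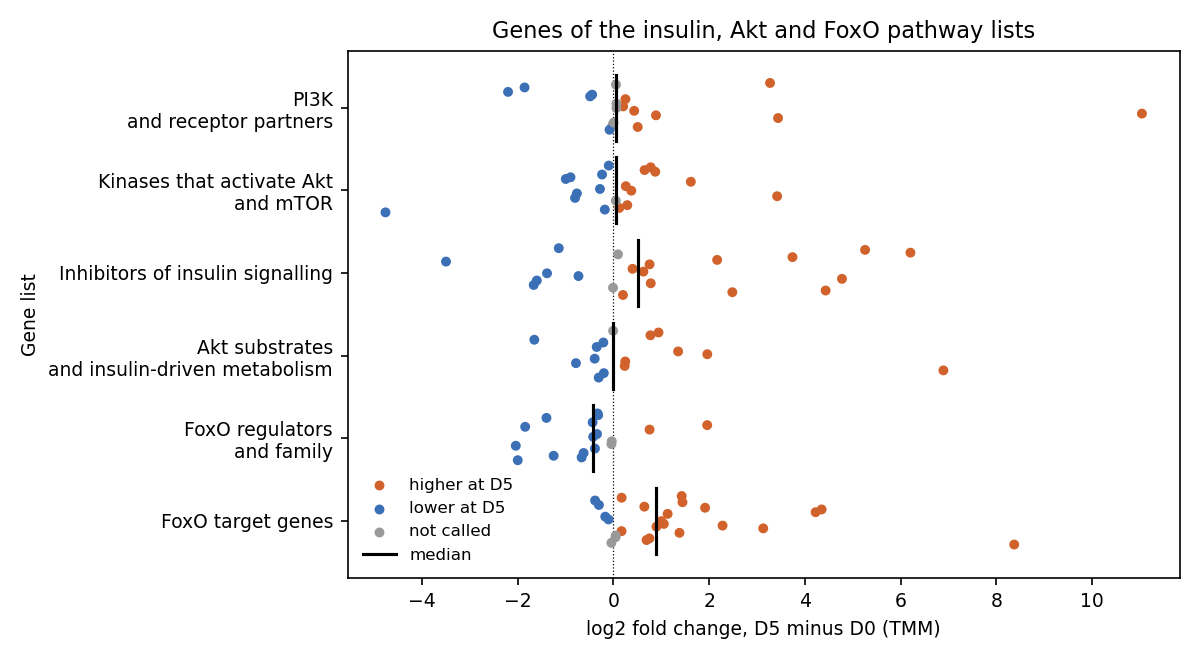
Log2 fold change from D0 to D5, with TMM scaling, of the genes tested in the 6 pathway lists. Points are genes, orange higher at D5, blue lower and grey not called, and the black line is the median of a list. The FoxO targets have their median at 0.90 and the FoxO regulators at -0.42, and the point at the far right is Cav3, whose fitted value is no bound because it had 1 count at most at D0.

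The genes whose levels followed those of *Pik3r1* most closely over the 6 libraries were sought by the Euclidean distance between log2 CPM values centred on each gene's mean, among 11887 genes. They were *Kbtbd11*, *Dcaf6* and *Dusp27*, at distances of 0.053, 0.054 and 0.065 and log2 fold changes of 1.84, 1.84 and 1.85. For *Akt1*, the gene that fell most, they were *Hnrnpul2*, *Nbl1* and *Larp1*, at distances of 0.034, 0.040 and 0.041 and log2 fold changes of -0.41, -0.39 and -0.40.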

How the data were processed

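RNA-seq was performed on C2C12 myoblasts (D0, n = 3) and myotubes (D5, n = 3). The authors deposited raw gene counts from featureCounts on GRCm38, 1 library per column, without normalization. The sample labels name Tophat2 and NGS-QC-Toolkit, the methods of the study HISAT2 and FastQC, and annotation release, strand setting and the handling of multiply mapped reads are not given in the sources used here. The 92 ERCC spike-in rows (0.720% to 2.09% of counts) and 1 row without a gene name, which held the column total, entered neither library sizes nor tests. Replicates of a group differed beyond sampling noise (chi-square per degree of freedom 2.28 to 3.71), and all were kept as separate samples.

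Counts were filtered with filterByExpr, scaled with TMM factors and tested with the quasi-likelihood test of edgeR 4.0.16 in R 4.3.3. Benjamini-Hochberg adjustment covered the 16290 genes tested, with a threshold of 0.05. Standard errors (SE) were obtained from the fold change and the F statistic of its test. CPM uses TMM library sizes. TPM was computed without TMM factors from the union of exons in GENCODE M21, which gave a length for 97.8% of gene rows. Ratios used counts + 0.5. Counts of 3 or fewer in a library were taken as not detected, which covers counting error only. Promoter windows came from RefSeq (GRCm38.p6). Protein sequences were not used here.

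The members, lists and rules were chosen with earlier results of these data known. Of each list, the text names the 2 called genes that rose most and the 2 that fell most, provided the groups did not overlap and one group averaged 100 counts or more, and also family members of the 9 genes. Some genes of the planned lists and ratios are not reported here. Alternatives were DESeq2 1.42.0, upper-quartile factors, total counts alone, ERCC scaling, omission of the filter, a minimum of 10 counts per library, leave-one-out of the 6 libraries, a block for the replicate number, counts + 5 in ratios and the longest transcript for TPM. ERCC scaling with each D5 library left out was added after seeing the data. The fits were tested on simulated data with known changes.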

Additional observations from a re-analysis of the deposited data

How the results depend on the processing

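With DESeq2, upper-quartile factors, total counts alone, no filter, a minimum of 10 counts per library, the replicate block and each library left out in turn, 6 of the 9 genes were higher and 3 lower in every fit. Of these fits, total counts alone and no filter put 3 genes in place of 4 at a log2 fold change of at least 1. Over the fits that left out 1 library, between 13236 and 13599 genes passed the threshold, 6723 to 6936 as higher and 6513 to 6663 as lower, and the pathway lists had 55 to 57 higher and 41 to 44 lower. *Insr* moved by more than 1.5 times without D5 replicate 2, to -0.084, and with total counts alone, to -0.22. *Akt2*/*Akt1* and the other ratios kept their direction with counts + 5, with the replicate block and without each library.

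The replicate numbers of the labels were checked as a pairing. Deviations of same-numbered D0 and D5 libraries from their group means correlated at 0.033, 0.064 and 0.028, so that the numbers were not taken as pairs, although each library correlated best with its own number. With the replicate block 13558 genes passed the threshold against 13510 without it, and among the 9 genes 6 were higher and 3 lower.

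With ERCC scaling 5560 genes passed the threshold, 1813 higher and 3747 lower, with 0 of the 9 genes higher, 0 lower and 0 at a log2 fold change of at least 1, and 20 higher and 20 lower in the lists. The sign turned for *Irs1* (-0.28), *Foxo1* (-0.067), *Igf1r* (-0.37), *Pik3r2* (-0.55) and *Pik3r3* (-0.50). The spike-in share of the D5 libraries was uneven, and fits with ERCC scaling that left out one of them were added after seeing the data. Without D5 replicate 1, 3387 genes passed (1578 higher, 1809 lower), 0 of the 9 genes were higher, 0 lower and 0 past a log2 fold change of 1, and the lists had 16 higher and 11 lower, with *Irs1* at -0.21, *Igf1r* at -0.31, *Pik3r2* at -0.48 and *Pik3r3* at -0.47. Without D5 replicate 2, 11664 genes passed (1883 higher, 9781 lower), 1 of the 9 genes was higher, 3 were lower (*Insr*, *Irs2* and *Akt1*) and 0 were higher by 1 or more, and the lists had 20 higher and 62 lower, with *Irs1* at -0.76, *Foxo1* at -0.59, *Igf1r* at -0.82, *Pik3r2* at -1.04, *Pik3r3* at -0.94, *Tsc2* at -0.17 and *Sirt2* at -0.27. Without D5 replicate 3, 7291 genes passed (2988 higher, 4303 lower), 3 of the 9 genes were higher, 0 lower and 2 past 1, and the lists had 27 higher and 23 lower, with *Igf1r* at -0.071, *Pik3r2* at -0.24 and *Pik3r3* at -0.20. The cause was not tested.

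*Pik3r2*, at 0.0057 with TMM scaling, was also negative with upper-quartile factors (-0.010), total counts alone (-0.079, adjusted p = 0.048 by edgeR's test), no filter (-0.048) and without D0 replicate 1 (-0.0043), D0 replicate 3 (-0.020) or D5 replicate 2 (-0.0070), with a highest value of 0.022 among the fits without 1 library, and *Pik3r3* with total counts alone (-0.021). With TPM from the longest transcript 5 of the 9 genes kept their place in the order of levels at D0.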

Other observations

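Some genes of the same lists that the naming rule left out are given here, all called with TMM scaling except *Cdkn1b*. They were chosen after their values were seen, so that they describe the lists and do not test them. Among the partners, *Cav1*, which encodes the widely expressed caveolin, rose from 11.03 ± 0.610 to 107 ± 2.59 CPM (log2 fold change 3.27, SE 0.048, adjusted p = 1.4e-31). *Pik3ca*, the main catalytic subunit that Pik3r1 stabilises, was at 123 ± 3.94 CPM at D0 and 117 ± 3.06 at D5 (log2 fold change -0.08, SE 0.035, adjusted p = 0.0391). With TMM scaling *Mtor* rose from 106 ± 2.91 to 166 ± 3.62 CPM (log2 fold change 0.65, SE 0.034, adjusted p = 3.8e-17) and its partner *Rptor* from 125 ± 1.71 to 214 ± 5.09 (log2 fold change 0.78, SE 0.033, adjusted p = 1.5e-19), while *Rheb*, which activates mTOR, fell from 104 ± 3.62 to 61.5 ± 1.58 (log2 fold change -0.76, SE 0.038, adjusted p = 1.4e-17). Only 1 gene of that list, *Deptor*, was called higher with ERCC scaling, so that *Mtor* and *Rptor* were not.

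Among the inhibitors, *Enpp1*, a membrane protein that binds the insulin receptor, rose from 2.06 ± 0.210 to 56.8 ± 5.75 CPM (log2 fold change 4.77, SE 0.084, adjusted p = 1.8e-29), and *Pik3ip1*, which binds and inhibits PI3K, from 2.88 ± 0.196 to 38.6 ± 1.53 (log2 fold change 3.74, SE 0.072, adjusted p = 1.5e-28). The suppressors of cytokine signalling were divided, with *Socs3* rising from 7.38 ± 0.136 to 41.4 ± 3.86 CPM (log2 fold change 2.48, SE 0.066, adjusted p = 7.9e-25) and *Socs1* falling from 10.7 ± 0.493 to 3.51 ± 0.297 (log2 fold change -1.60, SE 0.099, adjusted p = 2.3e-15). Among FoxO targets, *Txnip*, which restrains glucose uptake, rose from 35.2 ± 3.88 to 171 ± 17.6 CPM (log2 fold change 2.28, SE 0.06, adjusted p = 5.2e-25), and *Gadd45a*, a stress-response gene, from 53.8 ± 4.86 to 471 ± 20.01 (log2 fold change 3.13, SE 0.046, adjusted p = 1.7e-31). *Cdkn1b*, a further cell cycle inhibitor and FoxO target, was at 87.1 ± 4.21 CPM at D0 and 84.6 ± 1.85 at D5 and was not called (log2 fold change -0.04, SE 0.039, adjusted p = 0.317). All adjusted p-values here are from edgeR's quasi-likelihood test with TMM scaling, values after ± are SD over 3 libraries, and with ERCC scaling the median log2 fold change of all genes tested was -0.58.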
